A study of Homo sapiens with 4 samples.

Results

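ZNF217 and 9 genes of the corepressor complex that it works with were examined in U937 cells, a human monocytic leukemia line. The 10 genes were listed by name for their role in the complex, with earlier results of these data known. They were ZNF217, CTBP1, CTBP2, KDM1A, RCOR1, RCOR3, HDAC1, HDAC2, PHF21A and HMG20B. Rows for 9 of the 10 were present among the 17656 genes of the deposited table, and all 9 passed the filter on low values that left 14582 genes for testing. CTBP2 had no row and was not analysed here.

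ZNF217 is a zinc finger protein that binds DNA and represses genes by bringing in the C-terminal binding proteins (CtBP) and the CoREST complex. In CoREST, the scaffold proteins RCOR1 and RCOR3 hold the demethylase LSD1 (gene KDM1A), which removes methyl groups from lysine 4 of histone H3, together with the deacetylases HDAC1 and HDAC2, which remove acetyl groups from histone tails. In myeloid leukemia, LSD1 is known for holding back the maturation of blast cells, and drugs against it let such cells take on monocyte features.

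RNA was sequenced from 4 libraries. The 2 control libraries carried the name NC and were described as untreated, and the other 2 were named sh-ZNF217 and described as a ZNF217 knockdown, that is a lowering of its messenger RNA, commonly done with a short hairpin RNA. All 4 were from the U937 line, and the labels gave no further allele, agent or time. The labels speak of a knockdown, while the study's text describes the sequenced cells in one place as a knockdown and in another as a knockout made with CRISPR-Cas9, so both kinds of reagent were looked up. Nothing in the labels told whether replicates were grown as separate cultures, so p-values measured only a spread that may be technical.

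The sequences listed by the study for ZNF217 are shown because they fix where each reagent meets the gene. ZNF217 (ENSG00000171940) codes for protein and lies on chromosome 20 (minus strand, chr20:53567071-53609907, hg38). Its reference transcript has 6 exons, 5790 bases and a coding sequence of 3144 bases. Sequences are written 5′ to 3′, and capitals mark the PAM, the short motif that Cas9 needs beside its target, as read from the genome.
hairpin S1: agtgttgatatgacacaggcc
hairpin S2: attaaggtcttctgaatgtgt
guide listed as sgNC: cgacgattcgagttccgagaAGG
guide listed as sgZNF217: cgcttccgcggcccgttcaa
Both hairpin sequences matched ZNF217 alone, as the strand complementary to its messenger RNA. S1 lay in the coding part of exon 5 (chr20:53571827-53571847), from coding base 3044, and S2 in the coding part of exon 2 (chr20:53582584-53582604), from coding base 223. The guide listed under the control name sgNC also had 1 match in the genome, inside ZNF217, in the coding part of exon 2 (chr20:53581836-53581855, minus strand), from coding base 972 and followed by the PAM AGG. The guide listed under the name sgZNF217 had 0 exact matches in the primary chromosomes of hg38 and 0 in annotated transcripts. Which of these hairpins or guides the sequenced libraries carried was not stated in the sources used here. The table's column names for the sh-ZNF217-labelled libraries hold S1, which is also the name of a listed hairpin, but nothing ties the name in the columns to the hairpin.

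**Figure D1:**
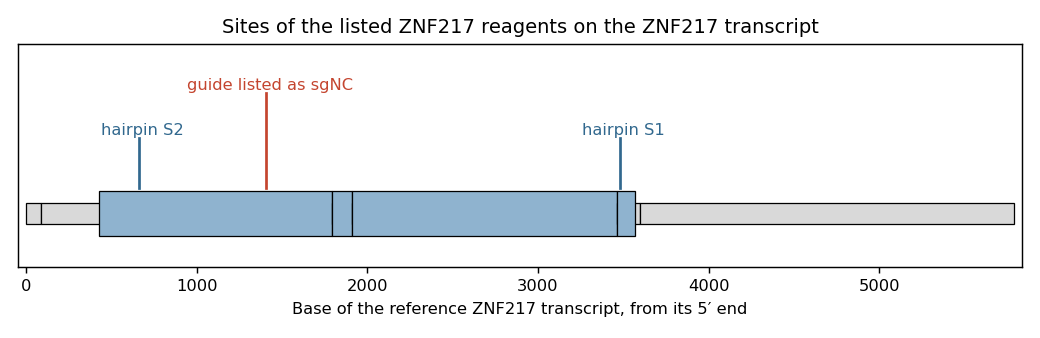
Sites of the listed reagents along the reference ZNF217 transcript, in bases from its 5′ end, with exons as boxes and the coding sequence in blue at full height. Hairpin S2 and the guide listed as sgNC sit in exon 2, hairpin S1 sits near the end of the coding sequence in exon 5, and the guide listed as sgZNF217 has no match to draw.

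The level of a gene was given as TPM, its share of a library's transcripts after division by transcript length. Levels of different genes may thus be set side by side only as far as the lengths used, which were not stated, hold. ZNF217 stood at 36.1 and 36.7 TPM in the NC libraries and at 35.8 and 35.0 TPM in the sh-ZNF217-labelled libraries. The 2 groups did not overlap, but they were less than 2 TPM apart, with group means (± SD, n = 2 each) of 36.4 ± 0.378 and 35.4 ± 0.593 TPM. The log2 fold change, taken throughout as the sh-ZNF217-labelled libraries minus NC on the log2(TPM + 1) scale, was -0.04 (SE 0.07, 95% interval -0.22 to 0.14, adjusted p = 0.74 in limma). The lower bound corresponded to a change of -13.8% in TPM + 1, and a larger fall lay outside the interval. After the 37 mitochondrially encoded genes were left out of the total, ZNF217 stood at 40.2 and 41.1 TPM in NC against 41.0 and 40.1 TPM, and the groups overlapped. The amount of transcript in these libraries thus did not tell the groups apart, and the libraries are called by their label below. The study itself reports that its hairpins lowered ZNF217 messenger RNA (by qRT-PCR) and protein in leukemia lines, with U937 among those it selected. Whether the sequenced libraries came from those cells was not stated. A Cas9 cut need not change the amount of the transcript, so a gene-level value is no check of a knockout. Of the exon bases of ZNF217, 3.7% also lie in exons of 2 genes on the other strand (ENSG00000197670 and ENSG00000235415), and whether reads were counted by strand is not stated.

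Genes with levels that followed ZNF217 most closely over the 4 libraries were PTP4A1, ENSA and FAM120A, at a distance of 0.004, 0.007 and 0.007 between centred log2(TPM + 1) profiles. PTP4A1, a phosphatase gene, stood at 39.8 and 40.2 TPM in NC and at 39.5 and 38.6 TPM in the sh-ZNF217-labelled libraries. Flat profiles of this kind were common, since 883 of 10198 genes with a symbol and a mean of at least 5 TPM lay within a distance of 0.1. Among the 5 protein-coding neighbours on each side of ZNF217 on chromosome 20, 3 of 10 were tested. At an adjusted p below 0.05 with an absolute log2 fold change above 0.5, 0 of the 3 were called, where 8.72% of all tested genes were. The lowest of them was PFDN4, a subunit of a chaperone that binds new proteins, at 37.8 and 34.7 TPM against 27.6 and 32.1 TPM (log2 fold change -0.28, adjusted p = 0.124 in limma).

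The genes of the complex stood at very unequal levels, in an order that depends on the gene lengths used for TPM. Annotated exon bases ranged from 3857 for HMG20B to 25046 for PHF21A, with 3966 for HDAC1 and 15333 for HDAC2. Their part in the order was not tested. In NC the mean level fell from HDAC1 at 382 TPM through CTBP1 at 193 TPM, KDM1A at 103 TPM, HMG20B at 85.9 TPM and HDAC2 at 74.1 TPM to RCOR3 at 47.0 TPM, RCOR1 at 46.7 TPM, ZNF217 at 36.4 TPM and PHF21A at 14.6 TPM. RCOR3 and RCOR1 were the only neighbours in this order whose NC libraries overlapped. In the sh-ZNF217-labelled libraries the order was kept except that RCOR1 (48.6 TPM) and RCOR3 (47.3 TPM) changed places within their spread, and there HMG20B and HDAC2 also overlapped. ZNF217 was lower than every tested partner except PHF21A in all 4 libraries.

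**Figure D2:**
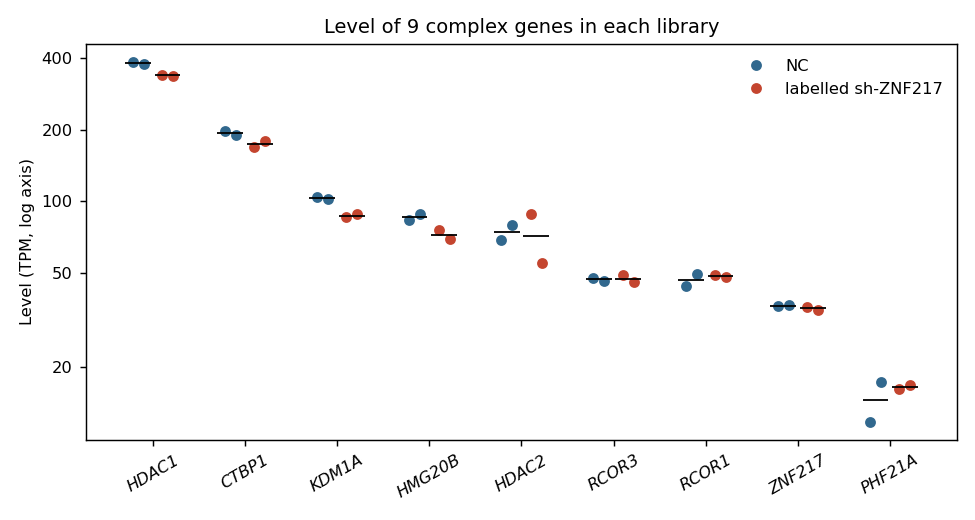
Level in TPM (log axis) of 9 genes of the complex, ordered by their NC mean, with points for the 2 NC libraries (blue) and the 2 sh-ZNF217-labelled libraries (red) and lines for the group means. HDAC1, CTBP1, KDM1A and HMG20B lie lower in both sh-ZNF217-labelled libraries, ZNF217 itself hardly moves, and the 2 red HDAC2 points lie on either side of the blue ones.

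None of the 9 genes met the full rule for a call, an adjusted p below 0.05 with an absolute log2 fold change above 0.5. Over all tested genes this rule called 8.72%, with 913 (6.26%) higher and 359 (2.46%) lower. At an adjusted p below 0.05 alone, 1 of 9 passed (KDM1A, lower), where 16.9% of all tested genes did. At an unadjusted p below 0.05, 4 of 9 passed (KDM1A, HDAC1, HMG20B and CTBP1, all lower), where 34.4% of all tested genes did. In 5 of 9 genes, these 4 and ZNF217, both sh-ZNF217-labelled libraries lay below both NC libraries, where 28.6% of all tested genes were arranged so. In 0 of 9 both lay above, where 33.5% of all tested genes were. The median log2 fold change was -0.08 over the 9 genes and 0.02 over all tested genes. Of the 9 genes, 6 were negative, against 47.5% of all tested genes. Under median-of-ratios scaling 7 of 9 were negative, and the median over all tested genes was itself lower there, at -0.0096.

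CtBP proteins are corepressors that bind a short motif in partner proteins such as ZNF217, and they sense the cell's NADH. CTBP1 (ENSG00000159692, chr4:1211445-1250333) stood at 198 and 189 TPM in NC and at 169 and 180 TPM in the sh-ZNF217-labelled libraries. Both of the latter were lower than both NC libraries, and the ratio of means was 0.901. The log2 fold change of -0.15 (SE 0.06, adjusted p = 0.137 in limma) did not pass. Its exons share 14.3% of their bases with CTBP1-AS and CTBP1-DT on the other strand. The share of CTBP1 in the sum with CTBP2 could not be computed without CTBP2.

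KDM1A, the LSD1 demethylase, moved furthest from 0 relative to its error among the 9 genes. KDM1A (ENSG00000004487, chr1:23019443-23083689) stood at 104 and 102 TPM in NC and at 85.8 and 88.2 TPM in the sh-ZNF217-labelled libraries. The groups were well apart compared with their own spread, with means of 103 ± 1.09 TPM and 87.0 ± 1.72 TPM (SD, n = 2 each) and a ratio of 0.843. This was a log2 fold change of -0.24 (SE 0.06, 95% interval -0.38 to -0.10, adjusted p = 0.0408 in limma), which passed the p threshold but not the fold minimum. A lower log2 fold change was found in 20.3% of all tested genes. The adjusted p in limma rose to 0.105 to 0.139 when any 1 of the 4 libraries was left out, so this call rested on having all 4, whereas the log2 fold change stayed between -0.26 and -0.22.

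The total that TPM is taken from also moved with the groups. Mitochondrially encoded genes took 9.98% and 10.8% of TPM in NC and 12.5% and 12.7% in the sh-ZNF217-labelled libraries. With these genes left out of the total, KDM1A stood at 116 and 115 TPM against 98.1 and 101 TPM, a log2 fold change of -0.21 with an adjusted p of 0.0627 in limma. KDM1A thus stayed lower in both sh-ZNF217-labelled libraries, but it no longer passed the threshold.

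KDM1B, the closest relative of KDM1A and also a demethylase of lysine 4 of histone H3, stood at 69.5 and 72.7 TPM in NC and at 83.4 and 80.0 TPM in the sh-ZNF217-labelled libraries. Its log2 fold change was 0.20 (SE 0.06, adjusted p = 0.0869 in limma), which did not pass. The share of KDM1A in the sum of both was 59.9% and 58.5% in NC and 50.7% and 52.5% in the sh-ZNF217-labelled libraries. This share does not depend on how libraries are scaled, and the groups did not overlap. The exact permutation test gave p = 0.33 (two-sided), the smallest that 2 against 2 libraries allow, and this pair was chosen after its values were seen. The 4 other demethylases of this mark that were looked up were KDM1B, KDM5A, KDM5B and KDM5C. Of these, 0 were called, where 8.72% of all tested genes were. Their median log2 fold change was 0.14, where that of all tested genes was 0.02. In 3 of the 4 both sh-ZNF217-labelled libraries lay above both NC libraries, where 33.5% of all tested genes were arranged so.

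The CoREST scaffolds were level between groups. RCOR1 (ENSG00000089902, chr14:102592649-102730561) stood at 44.2 and 49.2 TPM in NC and at 49.1 and 48.1 TPM in the sh-ZNF217-labelled libraries. RCOR3 (ENSG00000117625, chr1:211258377-211316385) stood at 47.7 and 46.2 TPM in NC and at 48.9 and 45.7 TPM. For both genes the groups overlapped, with log2 fold changes of 0.06 (95% interval -0.14 to 0.25, adjusted p = 0.649 in limma) and 0.01 (95% interval -0.17 to 0.19, adjusted p = 0.949 in limma). RCOR1 made up 48.1% and 51.6% of the sum of both in NC and 50.1% and 51.3% in the sh-ZNF217-labelled libraries. By TPM neither scaffold prevailed, but this share depends on the unstated gene lengths. Annotated exon bases were 6199 for RCOR1 and 9092 for RCOR3.

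With KDM1A lower and the scaffolds level, the ratio of the scaffolds to KDM1A was higher in the sh-ZNF217-labelled libraries. The sum of RCOR1 and RCOR3 was 0.884 and 0.932 of the KDM1A level in NC and 1.14 and 1.06 in the sh-ZNF217-labelled libraries, and these ratios within a library do not overlap. The exact permutation p was again 0.33 (two-sided, the smallest possible), and this ratio too was chosen after values were seen. The ratio of HDAC1 to KDM1A was close in all libraries, at 3.70 and 3.70 in NC and 3.97 and 3.80 in the sh-ZNF217-labelled libraries, though the groups did not overlap. ZNF217 itself stood at 0.347 and 0.358 of the KDM1A level in NC and at 0.417 and 0.396 in the sh-ZNF217-labelled libraries. HMG20B stood at 0.80 and 0.864 of the KDM1A level in NC and at 0.878 and 0.783 in the sh-ZNF217-labelled libraries, and HDAC2 at 0.661 and 0.776 against 1.03 and 0.624. For these 2 genes the ratios overlapped.

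HDAC1, which the CoREST, NuRD and SIN3 complexes share, had the highest TPM of the 9 genes. This place and its share with HDAC2 below depend on the unstated gene lengths. HDAC1 (ENSG00000116478, chr1:32292083-32333635) stood at 385 and 379 TPM in NC and at 340 and 336 TPM in the sh-ZNF217-labelled libraries. The groups did not overlap and their ratio of means was 0.885, with a log2 fold change of -0.18 (SE 0.05, 95% interval -0.29 to -0.06, unadjusted p = 0.0100, adjusted p = 0.0544 in limma), short of the threshold. HDAC2 (ENSG00000196591, chr6:113933028-114011308) stood at 68.7 and 79.5 TPM in NC and at 88.3 and 55.0 TPM in the sh-ZNF217-labelled libraries. Of all 9 genes HDAC2 had the widest error, since the sh-ZNF217-labelled libraries held both its highest and its lowest level, and no difference smaller than its interval could be seen. Its log2 fold change was -0.08 (SE 0.22, 95% interval -0.64 to 0.47, adjusted p = 0.83 in limma). HDAC1 made up 84.9% and 82.7% of the sum of both in NC and 79.4% and 85.9% in the sh-ZNF217-labelled libraries, and these shares overlapped (exact permutation p = 1.0, two-sided).

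Neither accessory subunit passed the test. HMG20B (ENSG00000064961, chr19:3572777-3579088), an HMG-box protein that binds DNA for the complex, stood at 83.2 and 88.5 TPM in NC and at 75.4 and 69.1 TPM in the sh-ZNF217-labelled libraries. Its log2 fold change of -0.25 (SE 0.07, 95% interval -0.43 to -0.07, unadjusted p = 0.0160, adjusted p = 0.0717 in limma) was as far below 0 as that of KDM1A but did not pass. Exons of MFSD12 on the other strand cover 9.6% of its bases. PHF21A (ENSG00000135365, chr11:45929319-46121454), which reads unmethylated lysine 4 of histone H3, stood at 11.8 and 17.4 TPM in NC and at 16.2 and 16.9 TPM in the sh-ZNF217-labelled libraries. It had the lowest TPM of the 9 genes, its groups overlapped, and the log2 fold change of 0.19 (SE 0.18, 95% interval -0.26 to 0.65, adjusted p = 0.507 in limma) reached neither side. Summed over the 9 genes, the level was 978 and 988 TPM in NC against 908 and 873 TPM.

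**Figure D3:**
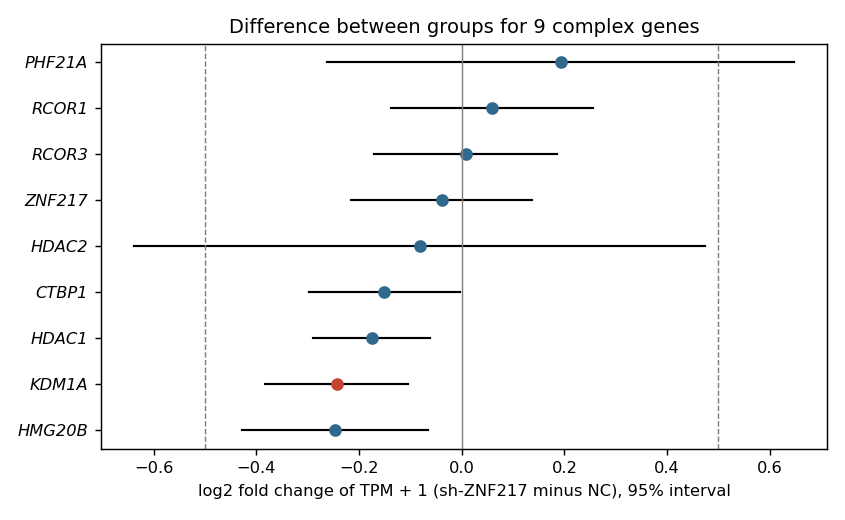
Log2 fold change of TPM + 1 (sh-ZNF217-labelled libraries minus NC) for 9 genes of the complex, with 95% limma intervals, dashed lines at the fold minimum of 0.5 and red for an adjusted p below 0.05. KDM1A alone is red at -0.24, CTBP1, HDAC1 and HMG20B also have intervals below 0, and those of HDAC2 and PHF21A are the widest.

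**Figure D4:**
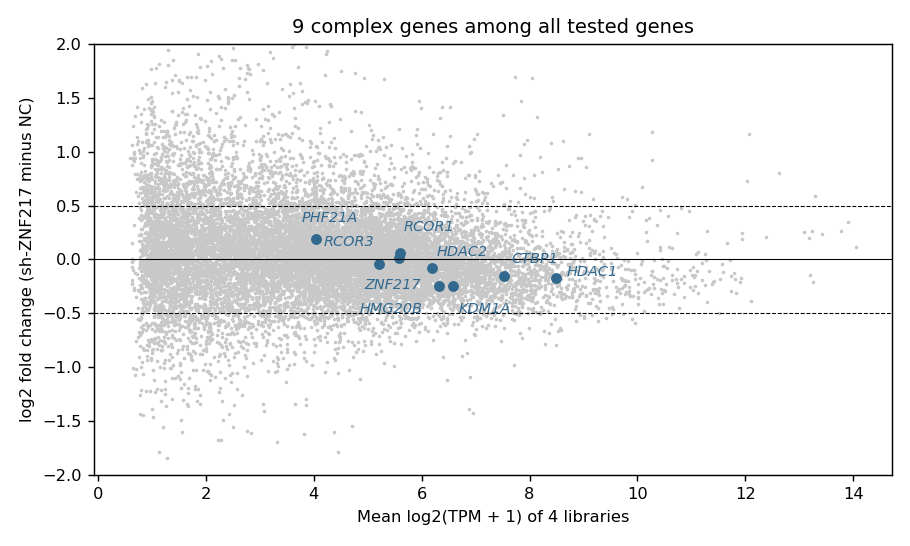
Log2 fold change against mean log2(TPM + 1) of the 4 libraries for all 14582 tested genes (grey) and 9 genes of the complex (blue), with dashed lines at the fold minimum of 0.5. The 9 genes lie inside the dashed lines and within the grey cloud, and 49 genes beyond a log2 fold change of 2 fall outside the axis.

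Other genes of the CoREST-LSD1 complex were next counted from a list. Of 6 further subunits and relatives (RCOR2, PHF21B, KDM1B, ZMYM2, ZMYM3 and GSE1), 4 were tested and 0 were called, with a median log2 fold change of -0.16. Of 10 factors that bring CoREST and LSD1 to DNA, 6 were tested and 0 were called, and 2 passed the adjusted p alone, 1 in each direction. Over all tested genes 8.72% were called and 16.9% passed the adjusted p. GFI1, the repressor that recruits LSD1 in myeloid cells, stood at 126 and 124 TPM in NC and at 93.3 and 104 TPM in the sh-ZNF217-labelled libraries (log2 fold change -0.34, adjusted p = 0.0294 in limma). RREB1, a RAS-responsive zinc finger factor, stood at 21.5 and 22.9 TPM against 28.3 and 30.9 TPM (log2 fold change 0.40, adjusted p = 0.0384 in limma). GFI1 thus fell and RREB1 rose by less than the fold minimum, and each lost its p threshold when any 1 library was left out (0.0553 to 0.101 for GFI1 and 0.0718 to 0.146 for RREB1, limma). Of 18 proteins that bind or recruit CtBP, 10 were tested and 0 were called, with a median of -0.0006. The most abundant of these were IKZF1, a lymphoid and myeloid zinc finger factor, at 141 and 139 TPM against 133 and 133 TPM, and ZEB2, a repressor active in monocytes, at 90.8 and 98.4 TPM against 103 and 108 TPM.

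HDAC1 and HDAC2 also serve the NuRD, SIN3 and MiDAC complexes, so the other subunits of these were counted. In NuRD, which remodels nucleosomes with the ATPases CHD3 and CHD4, 12 of 12 listed subunits were tested and 1 was called (lower). Over all tested genes 2.46% were called lower. With this subunit included, 4 of 12 passed the adjusted p, all lower. Of the 14582 tested genes, 1037 passed it and were lower, and 16.9% passed it in either direction. All 12 had negative log2 fold changes, with a median of -0.14, where 47.5% of all tested genes were negative. With mitochondrially encoded genes left out of the total, 10 of 12 were negative. That setting also moved the median over all tested genes, from 0.02 to 0.05. CDK2AP1, a small NuRD subunit that also restrains the kinase CDK2, fell from 57.1 and 59.4 TPM to 38.8 and 33.1 TPM (log2 fold change -0.69, SE 0.09, adjusted p = 0.0115 in limma). MTA1, a scaffold that holds HDAC1, stood at 85.0 and 88.4 TPM against 63.0 and 69.8 TPM (log2 fold change -0.38, adjusted p = 0.0265 in limma). The histone chaperones RBBP4 and RBBP7, which SIN3 shares, had log2 fold changes of -0.22 and -0.31 (adjusted p = 0.0482 and 0.0494 in limma). Both missed the threshold without the filter on low values (0.0583 and 0.058 in limma). The same held with mitochondrially encoded genes left out of the total (0.0785 and 0.0638 in limma). MTA1, RBBP4 and RBBP7 each missed the p threshold without any 1 of the libraries, at 0.0536 to 0.168 (limma), whereas CDK2AP1 passed it each time and missed it only without the trend and robust steps of the fit (0.0596).

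In SIN3, another HDAC1 and HDAC2 complex, 15 subunits were tested and 0 were called, where 8.72% of all tested genes were called. RBBP4 and RBBP7 were the 2 that passed the adjusted p, where 16.9% of all tested genes did. The SIN3 median was 0.01, with 7 of 15 negative. In MiDAC, a deacetylase complex of dividing cells, 0 of 3 were called. Its subunit DNTTIP1 stood at 75.4 and 80.8 TPM against 60.4 and 65.0 TPM (log2 fold change -0.31, adjusted p = 0.0415 in limma, 0.0673 to 0.147 without any 1 library). Its subunit MIDEAS stood at 39.5 and 42.2 TPM against 49.0 and 50.8 TPM (log2 fold change 0.28, adjusted p = 0.0513 in limma). MIDEAS thus fell short of the threshold, and the third subunit, TRERF1, had groups that overlapped. Among the 9 other histone deacetylases, 7 were tested and 0 were called, with a median of 0.06, and HDAC3 was the most abundant at 103 and 106 TPM against 116 and 102 TPM.

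Genes reported to respond to ZNF217 or LSD1 were looked up last. Of 3 genes reported under ZNF217 control in other cells, CDH1 and ERBB3 had no row. CDKN2B, which encodes an inhibitor of the kinases CDK4 and CDK6, rose, with 3.06 and 1.86 TPM in NC and 10.7 and 9.23 TPM in the sh-ZNF217-labelled libraries (log2 fold change 1.68, SE 0.22, adjusted p = 0.0107 in limma). The adjusted p in limma was 0.0662 and 0.0561 without replicate 1 and without replicate 2 of the latter group.

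Of 4 myeloid genes that LSD1 is known to repress, 3 of 4 were called higher, where 6.26% of all tested genes were. These 4 genes were listed with earlier results of these data known, so their count is a description and no independent evidence. CD86, a costimulatory receptor, stood at 2.48 and 2.56 TPM in NC and at 17.8 and 17.4 TPM in the sh-ZNF217-labelled libraries, a log2 fold change of 2.40 (SE 0.13, adjusted p = 0.00141 in limma). ITGAM, the integrin CD11b, stood at 16.0 and 15.9 TPM against 43.1 and 43.0 TPM, a log2 fold change of 1.38 (SE 0.08, adjusted p = 0.00143 in limma). LY96, which helps the receptor TLR4 to bind endotoxin, stood at 10.3 and 12.9 TPM against 33.3 and 25.7 TPM, a log2 fold change of 1.28 (SE 0.17, adjusted p = 0.0104 in limma). These 3 genes stood 2.55-fold to 6.99-fold higher by their means, with both sh-ZNF217-labelled libraries above both NC libraries, although LY96 missed the threshold without replicate 1 of the former (adjusted p = 0.0532 in limma) and without the trend and robust steps of the fit (0.0507). CD14, a coreceptor for endotoxin, stood at 0.760 and 0.861 TPM against 1.73 and 2.79 TPM and did not pass (adjusted p = 0.0913 in limma). In the same libraries KDM1A and GFI1 had log2 fold changes of -0.24 and -0.34, while RREB1 and KDM1B went the other way, at 0.40 and 0.20. None of these met the full rule for a call, and KDM1A missed the p threshold with mitochondrially encoded genes left out of the total. Whether these differences bear on the repressed genes was not tested.

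**Figure D5:**
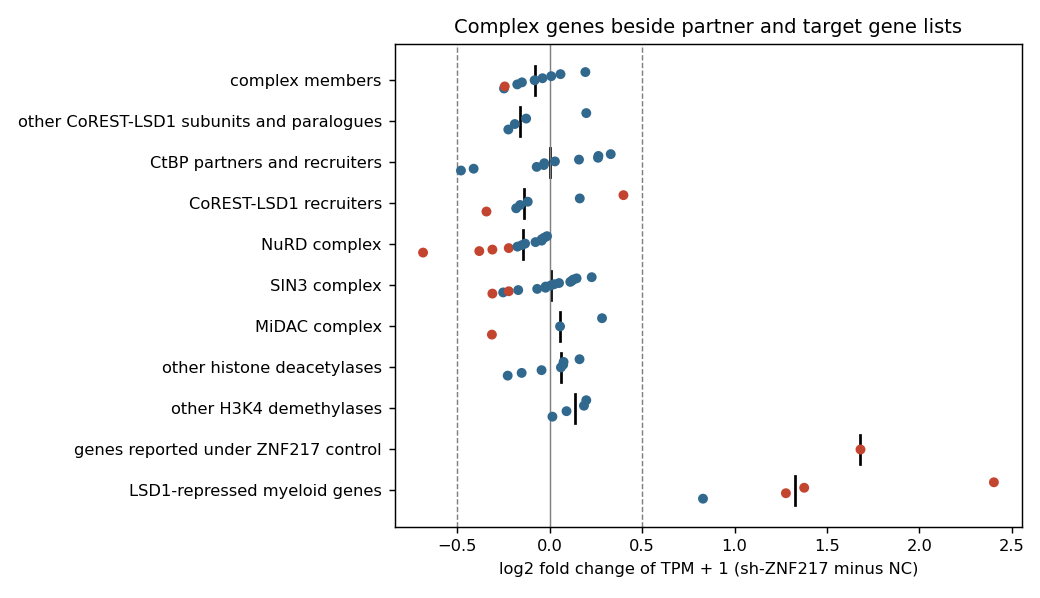
Log2 fold change of TPM + 1 (sh-ZNF217-labelled libraries minus NC) for each tested gene of 11 lists, with a black bar at each median, dashed lines at the fold minimum of 0.5 and red for an adjusted p below 0.05. Genes of the complex lie between -0.25 and 0.19 and those of the partner lists between -0.69 (CDK2AP1) and 0.40 (RREB1), while CDKN2B and the LSD1-repressed myeloid genes lie between 0.83 and 2.40.

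Markers of the cell type were checked beside these results. All 10 myeloid and monocyte markers had a row, and their summed level was 4355 to 4371 TPM in NC and 6575 to 6752 TPM in the sh-ZNF217-labelled libraries, most of it LYZ. Of 9 tested, 4 were called higher (PTPRC, LYZ, ITGAM and CSF1R), where 6.26% of all tested genes were, and ITGAM is also in the LSD1 list. FCGR1A and CD4 passed the adjusted p alone, both higher. CD33 and SPI1 did not pass, with log2 fold changes of 0.06 and 0.12. CEBPA lay lower in both sh-ZNF217-labelled libraries, at 297 and 256 TPM against 237 and 243 TPM, and did not pass (log2 fold change -0.20, adjusted p = 0.145 in limma). PTPRC missed the threshold without replicate 1 of the sh-ZNF217-labelled libraries (adjusted p = 0.0549 in limma) and without the trend and robust steps (0.0608), and CSF1R without either of them (0.0625 and 0.0714). The granule gene MPO was near 0 in all libraries, at 0.0854 to 0.513 TPM. Of 6 T and NK markers CD3D, CD3E, CD3G and CD8A had no row, and NCAM1 and NKG7 summed to 92.5 to 116 TPM in NC and 135 to 137 TPM in the sh-ZNF217-labelled libraries. Of 4 B markers MS4A1 had no row and the others summed to 5.51 to 10.7 TPM and 4.45 to 7.06 TPM. One of them, PAX5, was called lower (log2 fold change -0.80, adjusted p = 0.0458 in limma) and missed the threshold without any 1 library (0.121 to 0.165). None of 5 erythroid and megakaryocyte and of 5 epithelial and fibroblast markers had a row. The part of these markers in the results above was not tested. In bulk samples, fewer cells of a type and less RNA per cell cannot be told apart.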

How the data were processed

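Total RNA of U937 cells was made into Illumina TruSeq libraries, per the labels. The authors aligned reads with HISAT2 (version 2.0.5) to hg38, per the submitters' processing notes. The sources used here do not give how reads were counted per gene, against which annotation, with or without strand and at what depth. The study's methods name FPM, but the deposited values were taken as TPM. Each library summed to nearly the same total (998932 to 999282), and MT-ND4L and MT-ND4, which share a transcript but differ in length, had a ratio of 1.01 to 1.11, as length-divided values have. TPM keeps no depth, so no counting interval could be given, and abundant genes that rise push the rest down.

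Column names were tied to samples through NC or ZNF plus the replicate number, and their further parts (S1 and D4) were not explained. GENCODE 44 named 16143 of 17656 rows. Genes reaching 1 TPM in 2 libraries or more were transformed to log2(TPM + 1), which understates changes of low genes, and fitted over the whole table with limma 3.58.1 in R 4.3.3 (group alone, trended and robust empirical Bayes, Benjamini-Hochberg adjustment over all tested genes). DESeq2, which the authors used, needs counts and could not be run on TPM. On simulated data the procedure recovered 84 of 100 genes with a log2 change of 1 and 100 of 100 with a change of 2, with 3 false calls. Changes as small as those of the complex genes were not simulated. Shares and ratios were compared with exact permutation tests. Python 3.11.15 with matplotlib 3.10.9 drew the figures. Reagent sequences came from the study's supplement, and were matched to hg38 and to GENCODE 44 transcripts.

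The members and lists were chosen with earlier results of these data known. Named genes were all members, the repressed and reported target genes in full, at most 4 genes per partner list (called, at an adjusted p below 0.05, or of the highest mean), and the 3 tested genes with profiles nearest to that of ZNF217. KDM1B, MIDEAS, PFDN4 and the ratios to KDM1A were added after their values were seen. Alternatives were another pseudocount, other filters, other scalings, other moderation, a replicate block and leaving out each library. Those for genes outside the complex were added after seeing the data. One gene of the lists is not reported here and was left out of their counts.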

Additional observations from a re-analysis of the deposited data

How the results depend on the processing

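ZNF217 kept a log2 fold change between -0.07 and -0.004 over 11 alternatives, with an adjusted p (limma) of 0.523 to 0.978. None of the 9 genes was called under any of them. The count at an adjusted p below 0.05 was 1 (KDM1A). It was 2 under the stricter filter of 5 TPM and under median-of-ratios scaling (HDAC1 and KDM1A), and 0 without mitochondrially encoded genes, 0 without trend and robust steps, 0 with the replicate block and 0 to 0 when each library was left out in turn. KDM1A passed under 4 of 11 alternatives. RCOR3 reversed to -0.0245 under median-of-ratios scaling. When each library was left out in turn, RCOR1 ranged from -0.0178 to 0.13, RCOR3 from -0.0397 to 0.0562, HDAC2 from -0.42 to 0.25 and PHF21A from -0.0673 to 0.45. The causes were not tested.

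Over all genes, 913 were called higher and 359 lower. These became 560 and 163 without trend and robust steps (723 at an adjusted p below 0.05, against 2461), 815 and 441 under median-of-ratios scaling, and 1041 and 293 without mitochondrially encoded genes. When each library was left out in turn they were 312 to 723 higher, 149 to 318 lower and 510 to 1522 at an adjusted p below 0.05. Deviations of same-numbered libraries showed no correlation over genes (-0.0053), which cannot tell whether the samples were paired by design, and the labels do not say. The replicate block gave 749 higher, 300 lower and 1685 at an adjusted p below 0.05. The depth behind TPM is unknown, and 2 libraries per group limit what could be seen.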
